A study of Mus musculus with 29 samples.

Results

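The 8 Gimap genes of the mouse (Gimap1, Gimap3, Gimap4, Gimap5, Gimap6, Gimap7, Gimap8 and Gimap9) were followed through 10 groups of stimulated CD4+ T cells. They were selected on measured values, out of 55414 counted genes: the fold changes with lactic acid in cells given TGF-beta, where their transcripts rose. The files list them as Gimap1 (ENSMUSG00000090019), Gimap3 (ENSMUSG00000039264), Gimap4 (ENSMUSG00000054435), Gimap5 (ENSMUSG00000043505), Gimap6 (ENSMUSG00000047867), Gimap7 (ENSMUSG00000043931), Gimap8 (ENSMUSG00000064262) and Gimap9 (ENSMUSG00000051124). All 8 passed the filter on low counts, as did 14375 genes in all. The comparisons of lactic acid under TGF-beta are therefore what the choice rests on, and they are described here without a test. The test results come from lactic acid without TGF-beta, and from TGF-beta, sorted population and time averaged over both lactic acid settings, which the choice does not fix.

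All cells came from spleens of C57BL/6-Foxp3tm1Flv/J mice, whose Foxp3 locus carries a red fluorescent reporter (FoxP3RFP). Every culture received anti-CD3, anti-CD28 and IL-2 in medium with 0.5 mM glucose. The 4 groups at 24 h are reporter-negative cells (Tcon) with neither addition, with 10 mM lactic acid, with 3 ng/ml TGF-beta, or with both. At 72 h the same 4 Tcon groups are joined by reporter-positive cells (Treg) from cultures with TGF-beta, without and with lactic acid. Each group has 3 libraries, except Tcon with neither addition at 72 h, which has replicates 1 and 2 only. Replicate 1 came from male mice and the others from female mice. Replicate 1 is thus from other animals than replicates 2 and 3. The labels do not say whether replicates 2 and 3 are separate animals or cultures, so the p-values measure the spread between these libraries. That spread includes the difference between male and female mice, and between replicates 2 and 3 it may be technical. The labels name purified CD4 T cells as the starting material and do not say whether Foxp3-expressing cells were removed first, so Treg from the spleen and Treg that arose in culture cannot be told apart.

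Gimap proteins are GTPases that sit mostly on intracellular membranes, among them lysosomes and the endoplasmic reticulum. They are abundant in resting lymphocytes, and mice or rats that lack Gimap5 or Gimap1 lose most of their peripheral T cells. Their transcripts are known to fall when naive T cells are stimulated.

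Gimap3 and Gimap5 are close relatives in sequence, which bears on how well short reads separate them. In the transcript sequences of GENCODE M21 their coding sequences were identical at 90.4% of 895 aligned bases, with a longest identical run of 140 bases. The next most alike pair, Gimap7 and Gimap8, shared 73.9% of its aligned bases and a longest identical run of 9. Of the stretches of 65 bases, the read length, 113 occur in both transcripts, out of 2081 in Gimap3 and 1889 in Gimap5. Along the aligned coding sequences, 695 pairs of such stretches differed at a median of 1 base. A shared stretch and the least alike stretch are shown because a read from the former cannot be assigned to either gene and a read from the latter can. Capitals mark the bases at which the pair differs, and positions count from the first coding base.
Gimap3 coding bases 175 to 239: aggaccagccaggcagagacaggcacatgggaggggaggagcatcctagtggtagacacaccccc
Gimap5 coding bases 187 to 251: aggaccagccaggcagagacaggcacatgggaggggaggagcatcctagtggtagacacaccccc
Gimap3 coding bases 745 to 809: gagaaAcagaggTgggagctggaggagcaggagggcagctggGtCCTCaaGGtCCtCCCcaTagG
Gimap5 coding bases 757 to 821: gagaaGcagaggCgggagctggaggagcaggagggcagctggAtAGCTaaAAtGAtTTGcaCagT
The first pair has 0 differing bases and the second has 16. Reads of low alignment quality were set aside in the deposited counting, and the treatment of shared reads is not stated, which leaves the division of counts between these genes uncertain. Results for the summed counts of Gimap3 and Gimap5 are given beside the TGF-beta and Treg results, and for the difference of the lactic acid effect between times. As counted, Gimap3 held 86268 counts over all libraries and Gimap5 18033, so the sum mostly follows Gimap3.

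The genes lie side by side on chromosome 6, in the order Gimap8, Gimap9, Gimap4, Gimap6, Gimap7, Gimap1, Gimap5 and Gimap3, with no other RefSeq protein-coding gene between them. Upstream windows of 250 bases, taken from RefSeq (GRCm38.p6), were matched for all 8, with 9 windows because Gimap8 has 2 starts. The windows of Gimap7 and Gimap4 are shown because these genes had the widest lactic acid ratios at 24 h, and that of Gimap3 because it fell most with time under TGF-beta. Capitals mark the letters of the motifs searched.
Gimap7, chr6:48718371-48718620, plus strand: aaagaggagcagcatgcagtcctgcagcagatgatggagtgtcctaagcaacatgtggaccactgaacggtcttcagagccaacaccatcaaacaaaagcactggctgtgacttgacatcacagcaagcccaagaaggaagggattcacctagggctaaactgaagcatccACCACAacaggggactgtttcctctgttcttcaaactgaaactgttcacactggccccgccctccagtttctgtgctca
Gimap4, chr6:48684328-48684577, plus strand: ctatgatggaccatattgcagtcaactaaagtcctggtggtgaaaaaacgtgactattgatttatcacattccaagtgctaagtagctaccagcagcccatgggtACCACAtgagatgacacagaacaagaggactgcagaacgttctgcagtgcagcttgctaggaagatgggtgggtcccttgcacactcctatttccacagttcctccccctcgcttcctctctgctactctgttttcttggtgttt
Gimap3, chr6:48770852-48771101, minus strand: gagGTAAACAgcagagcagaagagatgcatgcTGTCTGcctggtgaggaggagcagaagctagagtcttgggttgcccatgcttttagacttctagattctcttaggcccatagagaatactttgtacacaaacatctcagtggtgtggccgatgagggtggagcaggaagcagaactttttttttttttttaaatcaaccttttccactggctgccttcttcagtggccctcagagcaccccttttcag
Both strands were searched for 7 short motifs, and no match overlaps a match of another motif. The RUNX letters TGTGGT were found upstream of Gimap1, Gimap4 and Gimap7, 3 of 8, against 14.05% of all 32851 promoter windows. The SMAD letters CAGACA were found for Gimap3 and Gimap8 (17.13% of all windows), the STAT letters TTCNNNGAA for Gimap6 and Gimap8 (7.02%), and the FOXO letters TGTTTAC for Gimap3 (3.17%). The KLF letters CACACCC, the AP-1 letters TGANTCA and the ETS letters CCGGAA were in none of the 8 (6.93%, 6.75% and 12.03% of all windows). No motif was therefore common to the family, and a match describes letters, not binding.

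The 29 libraries held 9754511 to 14315313 gene counts. Expression is given as CPM, counts scaled to the library size after TMM adjustment. Cd4 stood at 418.6 to 668.7 CPM in every library, and Foxp3 at 0 to 73.3 CPM in Tcon against 153.2 to 572.5 in Treg. Of 8 B cell markers 6 stayed under 1 CPM in every library, as did 7 of 9 myeloid and 7 of 8 endothelial ones, endothelium being another cell type that expresses Gimap genes. The CD8 and natural killer list was not at background: its sum ranged from 32.9 to 138.5 CPM, led by Nkg7 (up to 112.9), while Cd8a reached 16.1 at most. In bulk samples of this kind, fewer cells of a type and less RNA per cell cannot be told apart.

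The Gimap genes were well measured. Total counts over the 29 libraries ran from 4552 for Gimap7 to 86268 for Gimap3, and the smallest count of any member in a library was 19, for Gimap7. Their summed level was lowest at 72 h with TGF-beta alone. At 24 h the sum was 1021.2 ± 93.8 CPM with neither addition and 1394.2 ± 207.7 with lactic acid (SD, n = 3). TGF-beta gave 927.7 ± 208.3 without and 1370.8 ± 317.3 with lactic acid at that time. At 72 h, Tcon with neither addition held 763.9 ± 6.51 CPM (n = 2) and Tcon with lactic acid 786.0 ± 80.5. With TGF-beta the sum was 372.4 ± 20.2 CPM in Tcon and 406.0 ± 59.2 in Treg, and with both additions 882.5 ± 40.5 and 835.3 ± 56.9. Every library of these Tcon and Treg with TGF-beta alone lay below every library of the other 8 groups. The choice of genes used these groups, so this is only a description. Single members departed from it. Gimap9 averaged 53.4 CPM in Treg with TGF-beta alone and 52.0 in 72 h Tcon with neither addition. Gimap4 in 72 h Tcon with TGF-beta alone (101.6 to 124.9 CPM) overlapped 24 h cells with neither addition (114.3 to 156.6).

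**Figure D1:**
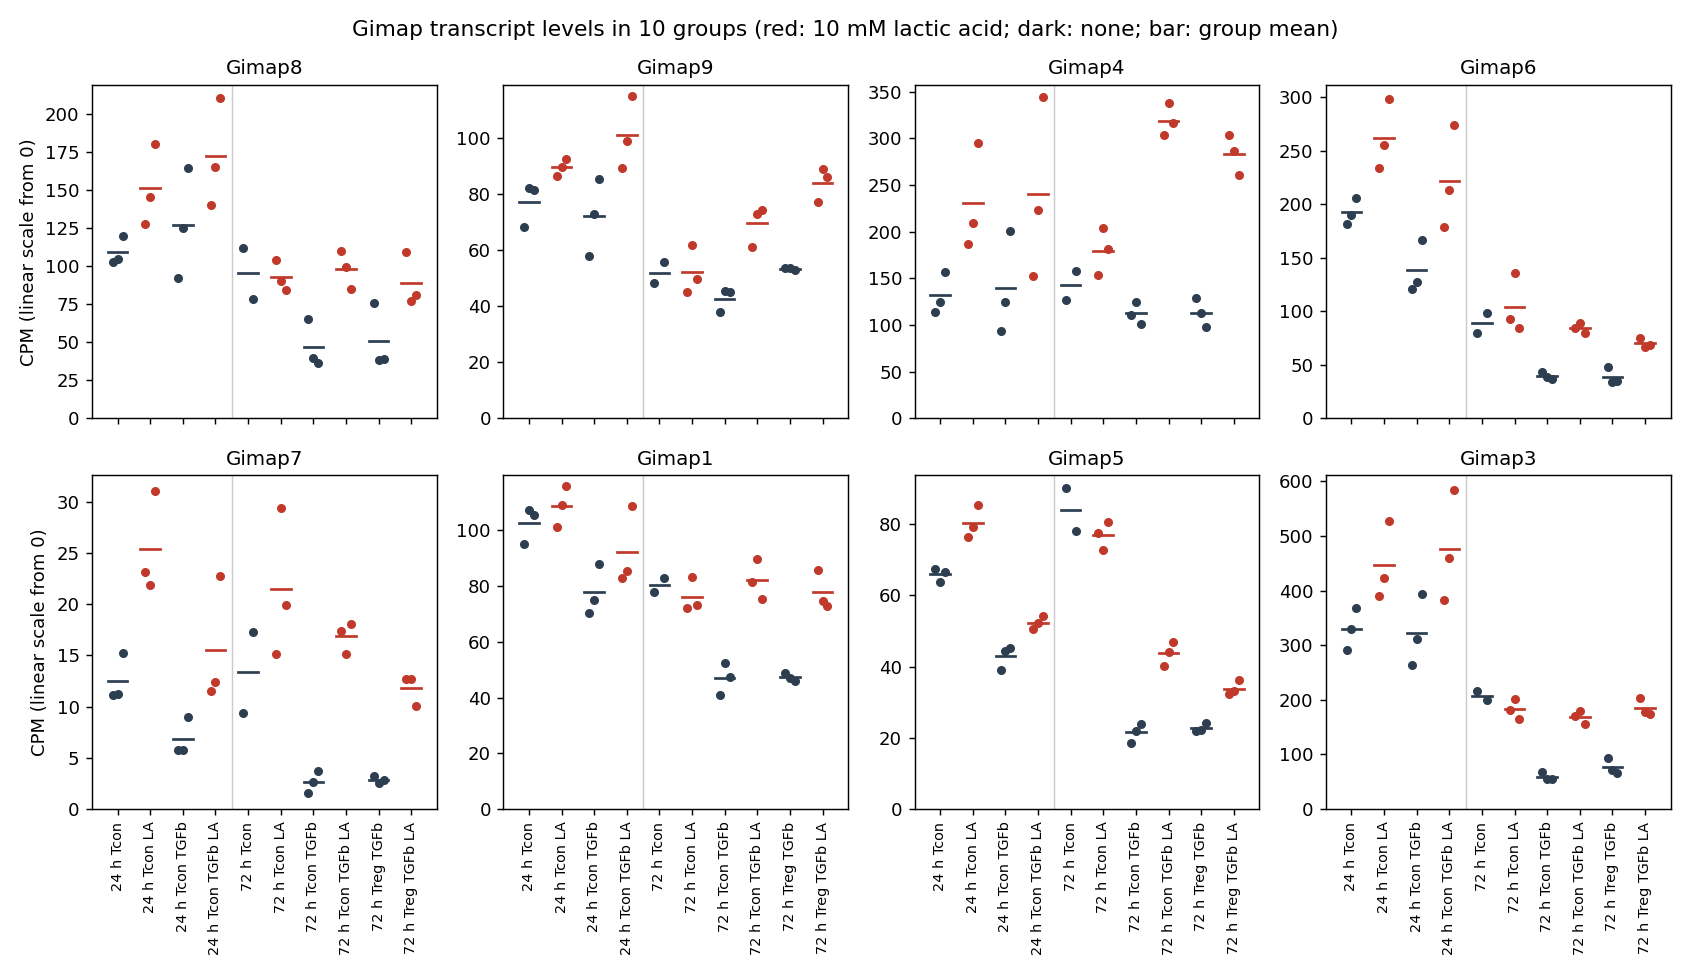
CPM of each Gimap gene (linear axis from 0) in the 10 groups, 1 point per library and a bar at the group mean, with lactic acid in red and none in dark. Gimap7 stands at 2.65 CPM in 72 h Tcon with TGF-beta alone and at 16.9 with lactic acid added, whereas Gimap5 has its highest mean in 72 h Tcon with neither addition (84.1).

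Levels were compared between genes as CPM per kilobase of exon, with the length taken over all annotated exons of a gene in GENCODE M21. This length was 4149 bases for Gimap5, 3496 for Gimap6 and 1837 for Gimap4. The transcripts used for the sequence comparison have 1953, 1594 and 1804 bases. The order between genes therefore rests on this choice of length, and no other was tried. In 24 h cells with neither addition Gimap3 led with a mean of 127.8 CPM per kilobase, followed by Gimap4 at 71.8, Gimap6 at 55.0 and Gimap9 at 47.1. Gimap1 (33.4) and Gimap8 (29.5) overlapped between libraries. Gimap5 (15.9) and Gimap7 (5.38) came last. In 72 h Tcon with TGF-beta alone the order was different: Gimap4 came first at 61.3 CPM per kilobase, Gimap9 (26.1) and Gimap3 (22.9) overlapped in the next place, and Gimap7 was again last at 1.14. Gimap7 was the least abundant per kilobase in each of the 10 groups.

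Lactic acid at 24 h without TGF-beta is a measure that the choice of genes did not use. Gimap7, a partner in GTPase dimers, read 11.1, 11.2 and 15.2 CPM without lactic acid and 23.1, 21.9 and 31.1 with it (replicates 1 to 3). All of the treated libraries lay above all of the others. Gimap4, a regulator of T cell death, read 114.3, 124.9 and 156.6 CPM without and 186.4, 209.2 and 295.4 with lactic acid, again without overlap. Gimap3 went from 290.7, 330.3 and 367.3 to 389.3, 423.8 and 527.0 CPM. Gimap5 read 67.4, 63.8 and 66.6 CPM without and 76.3, 79.3 and 85.3 with lactic acid. Neither of this pair overlapped between the settings.

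The edgeR estimates were positive for 8 of 8 members, with a median of 0.44 on the log2 scale against 0 over all genes tested. They ran from 0.08 ± 0.11 (SE) for Gimap1 to 1.02 ± 0.28 for Gimap7. Gimap4 followed at 0.80 ± 0.24, Gimap8, which has several GTPase domains, at 0.47 ± 0.25, Gimap6, a binding partner of autophagy proteins, at 0.45 ± 0.17, and Gimap3 at 0.44 ± 0.16. Of the members, 7 did not overlap between settings (all but Gimap1), against 11.5% of all genes that were higher in this way. None passed the quasi-likelihood test of edgeR after Benjamini-Hochberg adjustment over all genes, the smallest adjusted p being 0.253 for Gimap7. Only 11 genes in all rose in that comparison, 0.0765% of those tested, and 0.00696% fell. With an unadjusted p under 0.05 there were 5 members (Gimap3, Gimap4, Gimap5, Gimap6 and Gimap7) among 1027 genes, and DESeq2 called none of the 8.

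Libraries of 1 replicate number within a time point were related. For Gimap3, Gimap4, Gimap6, Gimap7 and Gimap8, replicate 3 was the highest library in 4 of 4 groups at 24 h. Each of the 8 genes was higher with lactic acid in 3 of 3 same-numbered pairs. The ratios were 2.08, 1.95 and 2.04 for Gimap7, 1.63, 1.67 and 1.89 for Gimap4, and 1.07, 1.02 and 1.10 for Gimap1. When these numbers entered the fit as a block for each time point, 6 of 8 rose, against 3.12% of genes called higher in that fit. Their adjusted p-values from edgeR with this replicate block were 0.00032 for Gimap4, 0.00184 for Gimap3, 0.00197 for Gimap7, 0.0164 for Gimap5, 0.0216 for Gimap8 and 0.0298 for Gimap6. Gimap9 (0.116) and Gimap1 (0.627) did not pass. Without a block, 2 members passed when the filter was dropped (Gimap4 and Gimap7) and 2 with the compared groups alone (Gimap6 and Gimap7), so the count at 24 h depends on these choices. In the same libraries the summed T cell markers were 3587.4 to 3654.5 CPM without and 3708.5 to 3742.5 with lactic acid. The CD8 and natural killer sum was 37.3 to 38.8 against 32.9 to 33.9. Whether these shifts have a part in the result was not tested.

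**Figure D2:**
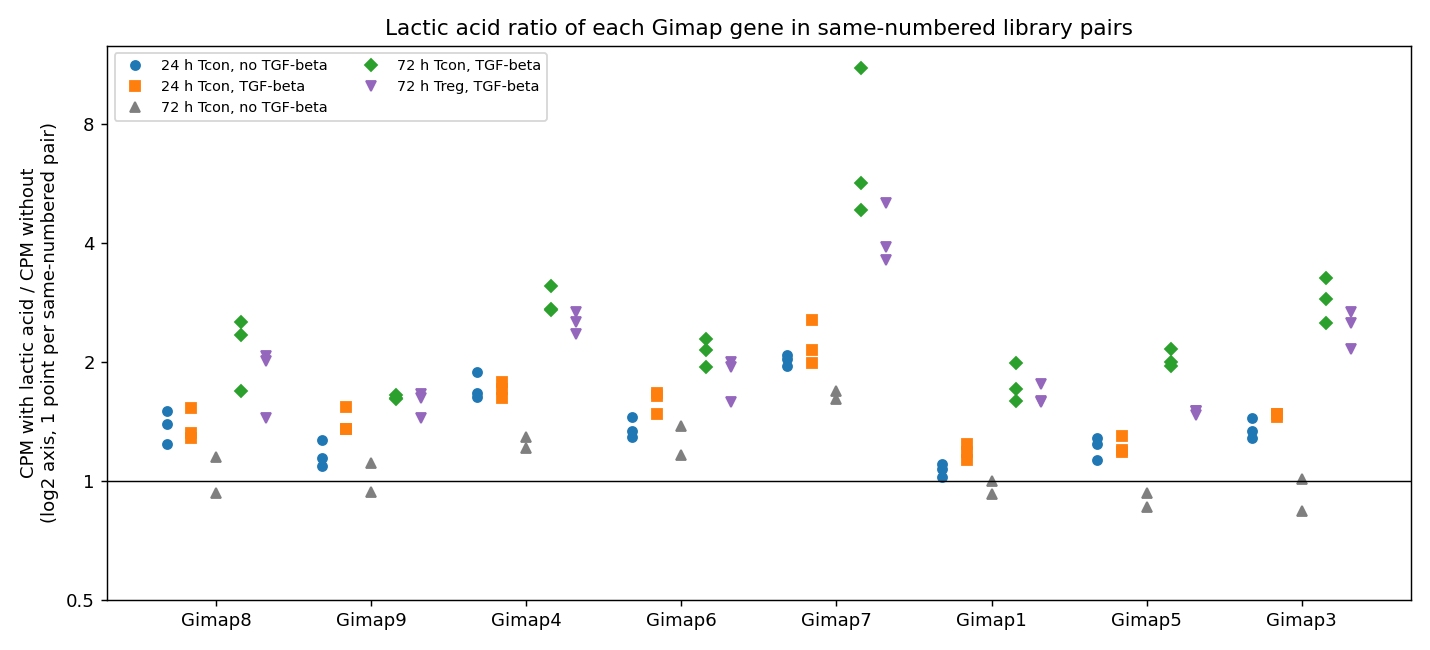
Ratio of CPM with to without lactic acid (log2 axis) for each Gimap gene, 1 point for each pair of libraries with the same replicate number, in 5 settings. At 24 h without TGF-beta the points lie above 1 for all 8 genes, whereas at 72 h without TGF-beta the 2 pairs lie on both sides of 1 for Gimap1, Gimap3, Gimap8 and Gimap9.

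At 72 h without TGF-beta no member was called with lactic acid. The 2 libraries without lactic acid read 215.1 and 199.5 CPM for Gimap3, and the 3 with it 180.6, 202.0 and 165.2. Gimap7 read 9.41 and 17.3 CPM without and 15.1, 29.4 and 19.9 with lactic acid, so that its groups overlapped. All 8 genes overlapped between settings, where 8.05% of all genes were higher and 9.0% lower without overlap. Estimates were positive for 4 of 8, with a median of -0.01, and ran from -0.18 ± 0.18 (Gimap3) to 0.68 ± 0.32 (Gimap7). None was called by edgeR or by DESeq2, against 0.0139% of genes called higher and 0.0557% lower. The replicate block called none of the 8 either (1.12% higher and 2.3% lower). With an unadjusted p under 0.05 there was 1 member, Gimap7, among 1289 genes. With 2 control libraries and standard errors up to 0.32, a rise of the size seen at 24 h was not resolved for Gimap4 (0.33 ± 0.27) or Gimap7. The same held for Gimap6 (0.23 ± 0.19), Gimap8 (-0.03 ± 0.28), Gimap9 (0.01 ± 0.15) and Gimap1 (-0.08 ± 0.12). The CD8 and natural killer sum was 54.6 and 138.5 CPM in those 2 control libraries, and its part in these values was not tested.

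The lactic acid effect was compared directly between the times. The difference, 72 h minus 24 h, was negative for 8 of 8 members, with a median of -0.38 against -0.02 over all genes. Neither edgeR nor DESeq2 called a member, and edgeR called no gene at all (0.0% in either direction), although 1313 genes, Gimap3 and Gimap5 among them, had an unadjusted p under 0.05. With the replicate block, Gimap3 (-0.55, adjusted p = 0.0136) and Gimap5 (-0.46, adjusted p = 0.0147) had a lower lactic acid effect at 72 h, in a fit that called 2.92% of genes lower. For their summed counts, fitted without the block, the difference was -0.58 ± 0.21 (adjusted p = 0.456 in edgeR). Only 2 replicate numbers are shared at 72 h.

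Under TGF-beta, where the genes were chosen, lactic acid went with higher levels of the whole family at 72 h. Gimap7 read 1.56, 2.66 and 3.72 CPM in Tcon without and 17.4, 15.1 and 18.1 with lactic acid. Treg gave 3.26, 2.51 and 2.78 against 12.7, 12.7 and 10.1. For Gimap4 the Tcon values were 111.1, 124.9 and 101.6 without and 303.0, 337.4 and 316.3 with lactic acid. In both populations the libraries of Gimap7 and Gimap4 were far apart. Gimap3 went from 67.9, 55.2 and 54.1 to 170.5, 180.0 and 155.5 CPM in Tcon, and Gimap5 from 18.6, 22.0 and 24.0 to 40.2, 44.1 and 46.8. Gimap1, needed for the survival of mature lymphocytes, went from 41.0, 52.4 and 47.4 to 81.4, 89.7 and 75.3 CPM.

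The log2 differences in Tcon at 72 h were 2.66 for Gimap7, 1.51 for Gimap3, 1.5 for Gimap4, 1.08 for Gimap6, 1.06 for Gimap8, 1.02 for Gimap5, 0.81 for Gimap1 and 0.70 for Gimap9. In Treg they were 2.05 for Gimap7, 1.32 for Gimap4, 1.27 for Gimap3, 0.86 for Gimap6, 0.80 for Gimap8, 0.72 for Gimap1, 0.65 for Gimap9 and 0.57 for Gimap5. The genes were chosen for these rises, so the counts that follow were shaped by the choice and nothing is read from them. Past the edgeR threshold were 8 of 8 in Tcon (0.744% of all genes) and 7 of 8 in Treg (1.49%), all but Gimap8. All 8 were without overlap in both, beside 8.4% and 9.13% of all genes. At 24 h with TGF-beta the differences were smaller, from 0.25 for Gimap1 to 1.19 for Gimap7. There 0 of 8 were past the threshold (0.16% of all genes), and 7 of 8 with the replicate block (4.26%). The 4 genes without overlap at 24 h were Gimap5, Gimap6, Gimap7 and Gimap9, beside 9.6% of all genes. The summed T cell markers were also higher with lactic acid at 72 h, 2755.9 to 2902.0 against 2927.0 to 3091.7 CPM in Tcon, and 2655.8 to 2843.7 against 2971.9 to 3011.0 in Treg. The CD8 and natural killer sum was 103.5 to 111.2 against 111.6 to 125.7 CPM in Tcon and 107.6 to 125.9 against 99.3 to 117.6 in Treg. Of that list, Klrd1 read 3.91 to 5.42 without and 8.94 to 15.2 with lactic acid in Tcon, and 3.95 to 5.04 and 6.42 to 9.83 in Treg. The part of these markers in the values was not tested.

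TGF-beta lowered several members, Gimap5 most evenly. At 24 h Gimap5 read 39.0, 44.3 and 45.2 CPM with TGF-beta alone, against the 63.8 to 67.4 given above, and 50.5, 52.3 and 54.3 with both additions. No library with TGF-beta reached a library without it, which held for 1 member and, in this direction, for 7.9% of all genes. Averaged over the lactic acid settings, 4 of 8 fell at 24 h in edgeR, against 10.7% of genes called lower. These were Gimap7 (-0.79 ± 0.20, adjusted p = 0.00579), Gimap5 (-0.62 ± 0.06, adjusted p = 7.7e-08), Gimap6 (-0.36 ± 0.12, adjusted p = 0.029) and Gimap1 (-0.32 ± 0.08, adjusted p = 0.00365). Each of the 4 was lower in 6 of 6 same-numbered pairs. The summed counts of Gimap3 and Gimap5 did not pass in edgeR (-0.06 ± 0.10, adjusted p = 0.722). Gimap3 makes up most of that sum (329.4 CPM against 65.9 for Gimap5 with neither addition). The sum therefore cannot show whether Gimap5 itself fell. The CD8 and natural killer sum was at 32.9 to 38.8 CPM without and at 52.3 to 67.7 with TGF-beta, higher in 6 of 6 pairs, and its part in these values was not tested. Gimap3 (0.03), Gimap4 (0.07), Gimap8 (0.20) and Gimap9 (0.04) did not pass the test. The call of Gimap6 was lost in 6 of 12 fits that left out 1 library, with estimates from -0.34 to -0.29: those without replicate 1 or 2 of either TGF-beta group, or without replicate 3 of either other group.

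At 72 h in Tcon 6 of 8 fell on that average, against 25.8% of genes called lower. Gimap5 fell by 1.39 ± 0.07 on the log2 scale (adjusted p = 1.04e-13) and Gimap7 by 1.34 ± 0.22 (adjusted p = 2.75e-05). Gimap3 fell by 0.96 ± 0.12 (adjusted p = 7.12e-07), Gimap6 by 0.73 ± 0.13 (adjusted p = 5.05e-05) and Gimap1 by 0.33 ± 0.08 (adjusted p = 0.00184), all in edgeR. Gimap8 was at -0.47 ± 0.19 (adjusted p = 0.0437), a call lost with RLE scaling (-0.45, adjusted p = 0.0532), with the compared groups alone (-0.45, adjusted p = 0.0557) and in 8 of the 11 fits that left out 1 library, where its estimate ran from -0.62 to -0.31. The call held without replicate 1 of either TGF-beta group or replicate 2 with neither addition, and not without any of the other 8 libraries. The fall was not uniform. Of 5 same-numbered pairs, 0 were higher with TGF-beta for Gimap3, Gimap5 and Gimap6, 1 for Gimap7, and 3 each for Gimap1 and Gimap8. Gimap9 (0.06 ± 0.10) and Gimap4 (0.24 ± 0.18) were not called. With the replicate block Gimap4 was called higher (0.27, adjusted p = 0.00768; 30.7% of genes). For the summed counts of Gimap3 and Gimap5 the estimate was -1.07 ± 0.10 (adjusted p = 1.02e-08). The CD8 and natural killer sum was at 43.7 to 138.5 CPM without and at 103.5 to 125.7 with TGF-beta, higher in 4 of 5 pairs, and its part was not tested.

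This average joins media with unlike values, which are given separately as a description because the TGF-beta libraries took part in the choice. Without lactic acid at 72 h, all 8 genes were lower with TGF-beta and none overlapped, beside 19.7% of all genes. Gimap7 stood 5.06-fold lower, Gimap5 3.90-fold, Gimap3 3.51-fold, Gimap6 2.23-fold, Gimap8 2.02-fold, Gimap1 1.71-fold, Gimap4 1.27-fold and Gimap9 1.22-fold. With lactic acid, Gimap5 was 1.76-fold lower with TGF-beta without overlap (24.6% of all genes). Gimap4 was 1.78-fold higher, at 303.0 to 337.4 CPM against 153.7 to 204.1 (24.8%). The other 6 overlapped, among them Gimap3 at 168.7 ± 12.3 against 182.6 ± 18.5 CPM. The means of Gimap1 (82.1 against 76.1), Gimap8 (98.2 against 92.8) and Gimap9 (69.6 against 52.2) were higher with TGF-beta. Those of Gimap3, Gimap6 and Gimap7 were lower. Gimap5 was thus the only one of the 8 whose libraries lay below those without TGF-beta in both media and at both times. At 24 h 21.0% of all genes did so without lactic acid and 18.6% with it. The share of all genes that did so in both media and at both times was not counted, so this does not set Gimap5 apart from other genes.

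The averaged TGF-beta effect differed between the times for Gimap3 and Gimap5. It was lower at 72 h by 0.99 ± 0.17 on the log2 scale for Gimap3 (adjusted p = 0.000132) and by 0.77 ± 0.09 for Gimap5 (adjusted p = 2.2e-06) in edgeR, against 11.1% of genes called lower. Since their counts may be exchanged, the sum was tested as well and gave -1.02 ± 0.14 (adjusted p = 1.5e-05 in edgeR). Most of that sum is Gimap3, so it is no separate test of Gimap5. Gimap8 (-0.67 ± 0.26, adjusted p = 0.0712) and Gimap6 (-0.37 ± 0.18, adjusted p = 0.142) did not pass. Both passed with the replicate block, at adjusted p = 0.000211 and 0.0412 (22.5% of genes called lower). Gimap8 also passed without the filter (-0.60), with the compared groups alone (-0.68), and in 2 of 23 fits without 1 library, those leaving out replicate 1 of TGF-beta alone at 24 h or at 72 h.

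**Figure D3:**
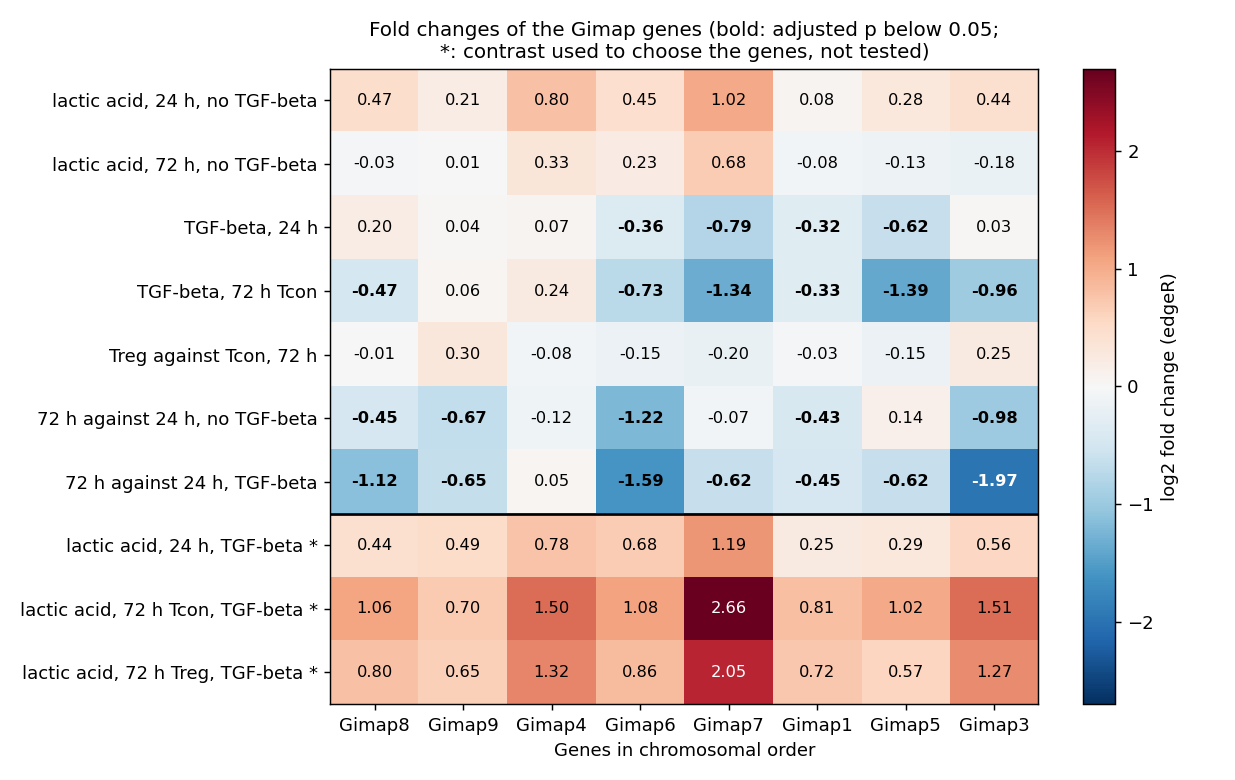
Log2 fold changes from edgeR (colour and number) of the 8 genes in chromosomal order, for 7 tested comparisons above the line and the 3 used in choosing the genes below it. Bold, used above the line only, marks an adjusted p below 0.05, as for Gimap5 with TGF-beta at 24 h (-0.62) and at 72 h (-1.39).

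Between Treg and Tcon of the 72 h cultures with TGF-beta, edgeR called none of the 8 on the average over lactic acid, against 2.14% of genes higher and 2.01% lower. DESeq2 called 1. With an unadjusted p under 0.05 there were 3 of 8 (Gimap3, Gimap5 and Gimap9) among 2131 genes. Gimap9 read 37.9, 45.3 and 45.1 CPM in Tcon and 53.7, 53.7 and 53.0 in Treg without lactic acid. With lactic acid the values were 61.2, 73.0 and 74.5 against 77.3, 89.1 and 86.0. Treg were above Tcon in 6 of 6 same-numbered pairs and did not overlap them in either medium, beside 3.58% of all genes without and 9.83% with lactic acid. The estimate was 0.30 ± 0.09 (adjusted p = 0.0796 in edgeR, 0.000596 with the replicate block). The block also called Gimap3 higher in Treg (0.25, adjusted p = 0.00378), in a fit that called 8.97% of genes higher. For the summed counts of Gimap3 and Gimap5, without the block, the estimate was 0.17 ± 0.10 (adjusted p = 0.457).

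Gimap5 overlapped between the populations without lactic acid, at 21.6 ± 2.7 CPM in Tcon and 22.7 ± 1.15 in Treg. With lactic acid it read 40.2, 44.1 and 46.8 CPM in Tcon and 32.3, 33.1 and 36.1 in Treg, without overlap. Gimap6 (84.5 against 70.3 CPM) and Gimap7 (16.9 against 11.8) were likewise lower in Treg without overlap in that medium, beside 8.63% of all genes. These values per medium are descriptions.

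Between 24 and 72 h most of the family fell, Gimap3 and Gimap6 most. Without TGF-beta and averaged over lactic acid, 5 of 8 fell, against 27.0% of genes called lower. Gimap6 fell by 1.22 ± 0.13 on the log2 scale (adjusted p = 3.23e-08 in edgeR), Gimap3 by 0.98 ± 0.12, Gimap9 by 0.67 ± 0.10, Gimap8 by 0.45 ± 0.19 and Gimap1 by 0.43 ± 0.08. The adjusted p of Gimap8 was 0.0451, and its call was lost in 8 of 11 fits without 1 library, where its estimate ran from -0.59 to -0.37. It held without replicate 1 of lactic acid at 24 h, or replicate 1 of either group at 72 h. Gimap4 (-0.12), Gimap7 (-0.07) and Gimap5 (0.14, adjusted p = 0.0657) did not pass. Gimap5 read 78.1 and 90.1 CPM at 72 h with neither addition, above the 63.8 to 67.4 of 24 h. With a block over all libraries it passed as higher (0.16), as it did in 2 of 11 fits without 1 library, those leaving out replicate 3 at 24 h or replicate 2 at 72 h of the lactic acid groups.

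With TGF-beta 7 of 8 fell over this interval, all but Gimap4 (0.05 ± 0.17), against 31.4% of genes called lower. Gimap3 fell by 1.97 ± 0.12 (adjusted p = 1.26e-12 in edgeR), Gimap6 by 1.59 ± 0.12, Gimap8 by 1.12 ± 0.18, Gimap9 by 0.65 ± 0.09, Gimap5 and Gimap7 by 0.62 and Gimap1 by 0.45 ± 0.08. The call of Gimap7 (adjusted p = 0.0162) was lost in 3 of 12 fits without 1 library: those leaving out replicate 3 of TGF-beta alone (-0.5) or of both additions (-0.43) at 24 h, or replicate 1 of TGF-beta alone at 72 h (-0.49). Gimap4 was called in neither setting. Without TGF-beta the summed T cell markers were at 3587.4 to 3742.5 CPM at 24 h and at 2538.2 to 3552.6 at 72 h, and the CD8 and natural killer sum at 32.9 to 38.8 and at 43.7 to 138.5. With TGF-beta the T cell sum was at 3448.2 to 3766.9 CPM at 24 h and at 2755.9 to 3091.7 at 72 h, and the CD8 and natural killer sum at 52.3 to 67.7 and at 103.5 to 125.7, neither overlapping. Their part in the time differences was not tested.

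The genes that flank the cluster were examined in the same fit. Of the 5 tested RefSeq neighbours on each side (Sspo, Lrrc61, Gm5111, Repin1 and Zfp775 before Gimap8, and Tmem176b, Tmem176a, Gpnmb, Malsu1 and Igf2bp3 after Gimap3), none was called with lactic acid at 24 h without TGF-beta. With lactic acid under TGF-beta, none was called in Tcon at 24 or 72 h, and 1, Sspo, was lower in Treg. With the replicate block Sspo was also called lower in Tcon at 72 h, with TGF-beta (8.68% of genes) and without it (2.3%). Gm5111 was called higher in Treg (9.91%). Their estimates without the block were -2.16, -1.46 and 0.95. Zfp775 stood at 0.15 ± 0.18 and Malsu1 at 0.01 ± 0.15 for lactic acid at 24 h without TGF-beta. Over the 10 neighbours these estimates ran from -1.9 ± 0.72 (Sspo, mean 3.09 CPM) to 1.11 ± 0.74 (Tmem176b, mean 0.829 CPM), so those of low level were imprecise. For TGF-beta itself at 24 h, 2 of the 10 were called lower, Repin1 (-0.47 ± 0.15) and Igf2bp3 (-1.08 ± 0.12), and 0 higher, against 10.7% of genes called lower. For TGF-beta at 72 h, Lrrc61 (0.46 ± 0.12), Repin1 (0.52 ± 0.15) and Zfp775 (0.71 ± 0.13) rose and Igf2bp3 fell by 1.08 ± 0.11. In all, 6 of the 10 neighbours rose and 3 fell in that comparison, against 24.4% and 25.8% of genes. Gm5111, Tmem176b, Tmem176a and Gpnmb had means below 1 CPM.

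**Figure D4:**
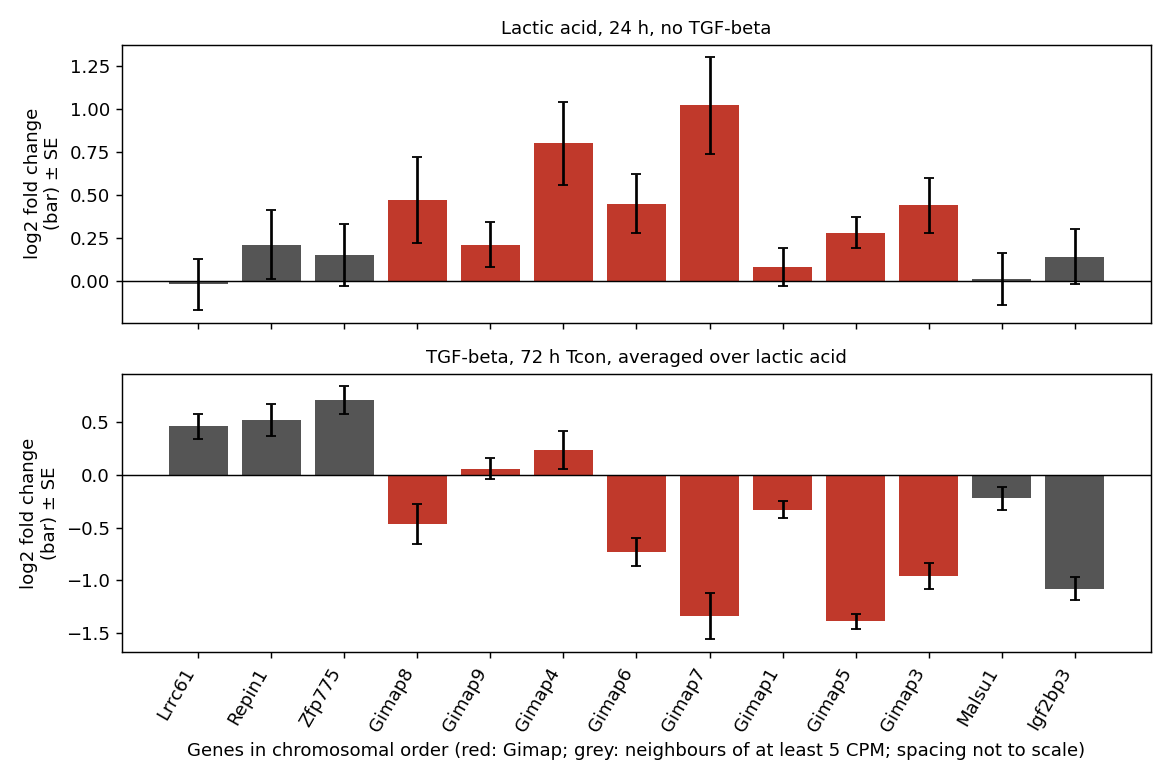
Log2 fold change (bars, with SE) of the 8 Gimap genes in red and of the neighbours with a mean of at least 5 CPM in grey, in chromosomal order with spacing not to scale, for 2 comparisons. For lactic acid at 24 h without TGF-beta the neighbours lie between -0.02 and 0.21, and the Gimap genes between 0.08 and 1.02.

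The members varied together to different degrees. Over the 10 group means, which share libraries, depth and the choice of genes, the pairwise Pearson correlation was highest for Gimap3 with Gimap8 (0.98) and Gimap3 with Gimap6 (0.97). It was lowest for Gimap4 with Gimap5 (0.26) and for Gimap5 with Gimap9 (0.32). Gimap3 and Gimap5, the pair most alike in sequence, stood at 0.74. Against the mean of the family, Gimap1 had the highest correlation (0.973) and Gimap4 the lowest (0.628). Among 9955 other genes of at least 5 CPM, the closest to the family mean were Gimap1os (0.983), an antisense transcript at the cluster, Gbp7 (0.968), an interferon-inducible GTPase, Trbv1 (0.936), a T cell receptor segment, Lyrm9 (0.922) and H2-T24 (0.921), an MHC class Ib gene. Gbp7 went from 59.1 to 78.6 CPM at 24 h with neither addition to 94.0 to 143.6 with lactic acid, and from 21.3 to 29.9 to 44.5 to 73.7 in 72 h Tcon with TGF-beta.

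Other GTPase families of immune cells, with 21 genes tested, had a median of 0.39 for lactic acid at 24 h without TGF-beta, where all genes had 0. None was called, and with the replicate block 8 of 21 rose (3.12% of genes), namely Gbp3, Gbp6, Gbp7, Gbp8, Gbp9, Gbp10, Tgtp2 and Arl4c. At 72 h with TGF-beta, 3 of 21 rose with lactic acid in Tcon (0.744% of all genes) and 4 in Treg (1.49%). None fell (1.42% and 2.02% of all genes). With the replicate block the counts were 17 in Tcon (6.7% of genes) and 14 in Treg (9.91%), Gbp2, Gbp3, Gbp7, Irgm1 and Igtp among them in both. Gbp10 rose by 1.58 ± 0.34 in Tcon and Gbp2 by 0.95 ± 0.24 in Treg, both guanylate-binding proteins induced by interferon. Rhoh, a GTPase of T cell receptor signalling, rose by 0.63 ± 0.13 and 0.70 ± 0.13 in the same comparisons. With TGF-beta at 72 h 10 of 21 rose and 2 fell, with a median of 0.50, against 24.4% and 25.8% of all genes. Gbp6 rose by 1.6 ± 0.19 there.

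The naive and resting T cell program, 24 genes, had a median of 0.20 for lactic acid at 24 h without TGF-beta. None was called, and 4 were higher under the replicate block (3.12% of all genes). With lactic acid at 72 h under TGF-beta, 2 of 24 rose (Ly6c1 and Txk) and 1 fell (Slfn2) in Tcon and in Treg. Of all genes, 0.744% rose and 1.42% fell in Tcon, and 1.49% rose and 2.02% fell in Treg. With the replicate block 7 rose and 5 fell in Tcon (6.7% and 8.68% of all genes), and 8 rose and 3 fell in Treg (9.91% and 9.79%). Ly6c1, a surface antigen of lymphocytes, rose by 3.35 ± 0.37 in Tcon, Txk, a kinase of T cell receptor signalling, by 1.21 ± 0.26, and Slfn2, a factor of T cell quiescence, fell by 0.57 ± 0.14. TGF-beta at 72 h raised 13 of 24 and lowered 5, where 24.4% of all genes rose and 25.8% fell. Klf2, a regulator of quiescence and of exit from lymphoid organs, went from a mean of 0.853 to 24.8 CPM, and Igfbp4, an insulin-like growth factor binding protein, from 20.5 to 462.7.

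Of 12 genes for reported protein partners and survival machinery around the Gimap proteins, none was called for lactic acid in any of the 5 settings without the block. With it, Bax fell at 24 h without TGF-beta (-0.24, 1.15% of genes lower), Bcl2l11 and Nfatc1 at 72 h without TGF-beta (2.3%), Bcl2l1 at 24 h with TGF-beta (2.44%), and 3 genes each in Tcon and Treg at 72 h with TGF-beta (8.68% and 9.79%). TGF-beta at 72 h raised 4 and lowered 4, shares near the 24.4% and 25.8% of all genes. Bcl2, which protects from apoptosis, rose by 1.92 ± 0.16 (from 161.5 to 606.9 CPM), and Bcl2l1, with a like function, fell by 0.90 ± 0.12. Bcl2l11, which promotes apoptosis, fell by 0.99 ± 0.36. Of 18 T cell activation genes, 6 fell with lactic acid in Tcon and 9 in Treg at 72 h with TGF-beta, with medians of -0.38 and -0.55, and none rose, against 1.42% and 2.02% of genes called lower. With the replicate block 8 fell and 1, Myc (0.33), rose in Tcon (8.68% and 6.7% of all genes). In Treg 14 fell and 2, Myc (0.28) and Il2ra (0.39), rose (9.79% and 9.91%). Cd83, an activation antigen, fell by 2.66 ± 0.35 in Tcon. At 24 h without TGF-beta none of the 18 was called, and 4 rose under the replicate block (3.12% of all genes).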

How the data were processed

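Polyadenylated RNA of sorted mouse CD4+ T cells was sequenced from strand-specific libraries as single reads of 65 bases, per the labels' protocols. Reads were handled with STAR 2.7.3a, HTSeq 0.12.4 and the assembly GRCm39, per the submitters' processing notes, where DESeq2 1.30.1 is listed too. The deposited values are whole-number counts per gene, without normalization. The sources used here do not give the strand setting or annotation release, which leaves overlapping and antisense genes uncertain. Library sizes exclude the rows without a gene, which held 13.3% to 17.0% (low alignment quality), 5.72% to 11.2% (outside genes) and 1.01% to 1.13% (ambiguous) of all entries. Symbols were matched for 52081 of 55414 identifiers from GENCODE M21 (GRCm38), used for names, exon lengths and transcript sequences.

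Counts were fitted with edgeR 4.0.16 (R 4.3.3): TMM scaling, filterByExpr (minimum count 10, minimum total 15), 1 quasi-likelihood fit of all 29 libraries by group with no covariate. P-values were adjusted by Benjamini-Hochberg across 14375 genes and called below 0.05. Each SE was derived from the log2 fold change and its F statistic. The fit was tested on simulated counts with known changes. These had the same spread for every gene and no replicate effect, so they do not show how the fit handles related libraries. Total gene counts of 9754511 to 14315313 limit precision mainly for Gimap7. Members, gene lists and comparisons were chosen with earlier results of these data known. All 8 members are named throughout, with 5 neighbours a side and the 5 genes most like the family mean. From each list, up to 3 called genes of large change are given per comparison as examples. Of these, Cd83 and Gbp6 did not have the largest change of their lists. Genes named as called under the replicate block were chosen after their values were seen. So were Cd83, Gbp6, Klf2, Gbp7, Klrd1 and the low neighbours beyond those rules.

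Deviations from the group mean correlated between same-numbered libraries of a time point in every pair compared (correlations of 0.108 to 0.772, against -0.723 to 0.506 for different numbers). These libraries were taken as paired. The replicate number within time (6 blocks) is therefore given for each tested member whose call it changes and for the gene lists under lactic acid. It gives no test between times. Also tried were omission of each library and of replicate 1 (male), DESeq2 1.42.0, scaling by RLE, a fit without the filter, the compared groups alone, 1 block across both times, and the summed counts of Gimap3 and Gimap5.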

Additional observations from a re-analysis of the deposited data

Results flagged for a closer look

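For Gimap3 and Gimap5 the effect of TGF-beta, averaged over lactic acid, differed between 24 and 72 h in a direct test of that difference with edgeR. The difference was -0.99 on the log2 scale for Gimap3, from 0.03 at 24 h to -0.96 at 72 h. For Gimap5 it was -0.77, from -0.62 to -1.39. The genes share much of their coding sequence, and in a fit of their summed counts the difference was -1.02. Most of the summed counts are Gimap3, so this value mainly repeats that gene.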

How the results depend on the processing

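Of 1696 values of single members under alternative settings, 1547 kept direction and side of the threshold, 39 lost a call, 52 gained one and 58 changed sign, none of them a value called in the reported fit. Their causes were not tested. For lactic acid at 24 h without TGF-beta, 0 members called became 2 without the filter, 2 with the compared groups alone and 6 with the replicate block within time. For Treg against Tcon, 0 became 1 with DESeq2, 1 with the block over all libraries, 2 with the block within time and 1 without replicate 1. For the difference of the lactic acid effect between times, 0 became 2 with the block within time. For the difference of the TGF-beta effect, 2 became 4 with that block, 4 without replicate 1 and 1 with Gimap3 and Gimap5 summed into 1 gene. For lactic acid under TGF-beta, 0 at 24 h became 3 with DESeq2, 3 without the filter, 2 with the block over all libraries and 7 with the block within time. At 72 h, 8 in Tcon became 5 and 7 in Treg became 2 with the compared groups alone, which leaves fewer libraries to estimate the spread. The block within time gives no test between times and was not run there. Beside the calls given in the report it added Gimap8 for lactic acid in Treg (0.83), and it changed no other call.

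With 1 library left out, the members called were 3 to 4 for TGF-beta at 24 h, 5 to 6 at 72 h, 4 to 5 and 6 to 7 for time without and with TGF-beta, 2 to 3 for the difference of the TGF-beta effect, and 7 to 8 for lactic acid under TGF-beta at 72 h in Tcon and in Treg. In the other comparisons the number was 0 throughout.

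Sign changes were in values that were not called. With 1 library or replicate 1 left out, lactic acid at 72 h without TGF-beta gave -0.01 to 0.38 for Gimap6, -0.27 to 0.25 for Gimap8 and -0.14 to 0.11 for Gimap9. TGF-beta at 24 h gave -0.06 to 0.1 for Gimap3, -0.11 to 0.19 for Gimap4 and -0.03 to 0.1 for Gimap9. Treg against Tcon gave -0.12 to 0.01 for Gimap1 and -0.21 to 0.15 for Gimap8. Time gave -0.36 to 0.14 for Gimap7 without TGF-beta and -0.18 to 0.23 for Gimap4 with it. The difference of the lactic acid effect gave -0.71 to 0.18 for Gimap7, and that of the TGF-beta effect -0.06 to 0.06 for Gimap1, -0.06 to 0.35 for Gimap4 and -0.06 to 0.14 for Gimap9. With all libraries, lactic acid at 72 h without TGF-beta gave 0.09 for Gimap8 and -0.01 for Gimap9 with the block within time, -0.04 for Gimap9 with the block over all libraries. TGF-beta at 24 h gave -0.009 for Gimap3 and -0.003 for Gimap9 with DESeq2 and with RLE scaling, and -0.02 and -0.01 without the filter. The difference of the TGF-beta effect gave 0.04 for Gimap1 with DESeq2 and RLE scaling, 0.06 without the filter and 0.004 with the block within time.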

Other observations

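2 further transcripts are counted at the cluster. Gimap1os, on the strand opposite to Gimap1, read 10.1 to 15.1 CPM at 24 h with neither addition and 19.7 to 21.9 with lactic acid. In 72 h Tcon with TGF-beta it read 2.14 to 6.18 without and 7.26 to 12.2 with lactic acid. Of the stretches of 65 bases in Gimap1, 76 occur in Gimap1os on the other strand, and the strand setting of the counting is not known, so its values are not independent of Gimap1. Gm28053 had 270 counts over all 29 libraries, too few to describe. In GENCODE M21 it shares 134 such stretches with Gimap1 (9.38%), 90 with Gimap5 (4.76%) and 17 with Gimap7 (1.41%).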
